A study of Homo sapiens with 8 samples.

Results

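The genes described here belong to the cell cycle families: the cyclins, the cyclin-dependent kinases (CDKs) and their inhibitors, the E2F factors, the MCM replication helicase, the CDC genes, the Aurora, Polo and BUB proteins, the centromere proteins and the kinesins. They were taken by symbol from the gene annotation of the array, as names beginning with CDK, CDC, MCM, E2F, AURK, PLK, BUB, CENP or KIF, or with CCN and a further letter, except for CDC42 and its relatives. Symbols of 98 genes matched, and 90 of them had values on at least 5 of the 8 arrays, among 4050 named genes of the array that reached this minimum. The 90 genes were read by 231 array features. Values were present on all 8 arrays for 66 genes, on 7 for 10, on 6 for 9 and on 5 for 5. CCNF, CDK18, CDK5R1, CENPB, CENPC, MCM10, PLK2 and PLK3 matched by symbol but had values on at most 4 arrays. CDKAL1, CDKN2AIPNL and MCM3AP share only part of a name with the families, and CCNDBP1 is a cyclin partner, not a cyclin.

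All RNA came from L363, an established human multiple myeloma line, so each group describes 1 line. Cells were given 12.5 µM MLN120B, a small-molecule inhibitor of the kinase IKKβ, at 37 °C for 8 h (2 arrays), 12 h (3 arrays) or 24 h (3 arrays). On each array the treated cells carried Cy5 and cells given the solvent DMSO carried Cy3, and no array had the dyes exchanged. Every value below is a log2 ratio centred on its array's median, likely MLN120B over DMSO, because the labels give the dyes but not the direction of the ratio. The base of the logarithm is not stated either and was taken as 2. A turned sign would reverse each direction and keep each size. Values within a time follow the order of the samples' numbers. Separate cultures are not described in the labels, so a p-value here reflects variation among these arrays, possibly technical. It leaves out variation of the control as far as arrays shared 1 control RNA, which cannot be told here.

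Cyclins activate CDKs, and successive pairs carry a cell from growth into DNA replication and then into mitosis. Active CDKs release E2F factors, which switch on replication genes such as the MCM helicase subunits, while CDK inhibitors hold the kinases back. In mitosis the Aurora, Polo and BUB proteins, the centromere proteins and the kinesins build the spindle and check the attachment of chromosomes to it. IKKβ frees the transcription factor NF-κB, and cyclin D1 (CCND1) is a well-known NF-κB target in several cell types.

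No gene of the cell cycle families was found to differ between MLN120B and DMSO beyond the spread between arrays. Most means over the 3 times were bounded within a 2-fold change, if the ratios are in base 2. Single times were bounded less tightly, and their intervals were not counted. In the mean over the 3 times, 0 of 82 tested genes passed an adjusted p of 0.05 in limma with Benjamini-Hochberg adjustment over all 5411 rows, and 0% of all rows passed. The smallest adjusted p of a member was 0.87 in that contrast. At an unadjusted p of 0.05 limma kept 1 of 82 members (1.22%), against 184 of 5411 rows (3.4%). The mean ratio ran from -1.06 for CDC20B to 0.68 for CDKL1, and 79 of the 82 means lay under 0.5 in size. For 77 of the 82 genes the 95% interval of the mean lay within 1 on the log2 scale, that is within a 2-fold change either way. A single time is less tightly bounded, as for CDK6, with an SE of 0.32 in the mean and 0.64 at 8 h. The intervals treat all arrays as equally precise and cannot cover a dye effect, since no dyes were exchanged. The median half-width of the intervals of the mean was 0.35, the narrowest was 0.26 for CCNB1 and the widest 1.48 for CDC20B. Members lay above 0 for 32 genes and below 0 for 50, so that 39.0% were above against 48.4% of all rows and 61.0% below against 51.6%, and their median was -0.053 against -0.0077. With the values as deposited, without centring, the median of all rows was -0.12, and 13 members lay above 0 and 69 below. The remaining 8 members had values on fewer than 2 arrays at some time and were not tested. In bulk RNA, a smaller share of cells in a phase and less RNA per cell cannot be told apart.

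The 8 arrays were not equally precise. Numbers in the labels' database identifiers form 3 runs of consecutive values, used here only as a technical grouping. The arrays of sample 3 (12 h and 24 h) make up run 1. In run 2 are the second 8 h sample and the first samples of 12 h and 24 h. The first 8 h sample and the second samples of 12 h and 24 h form run 3. Over the members, the SD of the log2 ratio was 0.17, 0.16 and 0.18 on the arrays of run 3 and 1.11, 0.75 and 0.71 on those of run 2. Ratios beyond 1 in size numbered 42 of 233 in run 2, 3 of 174 in run 1 and 0 of 270 in run 3. Of the 43 missing member values, 37 fell in run 2. Over the 66 members on all 8 arrays, the correlation between arrays was 0.092 to 0.56 for the 7 pairs of a run, -0.52 to 0.27 for the 21 pairs from different runs and -0.41 to 0.27 for the 7 pairs of 1 time. These correlations are across genes, which are not replicates, and arrays of a run may share more than the treatment. Without run 2 the 82 means lay between -0.35 and 0.28, their median was 0.013, and 44 were above 0 and 38 below. The model has no term for the runs, and the counts at an unadjusted limma p of 0.05 moved with them. With run as a fixed block 7 members passed (8.54%) against 11.8% of rows, and with run as a random block 0 members against 1.81%. Without sample 1 at 8 h 12 passed (14.6%) against 12.3% of rows, and without run 3 it was 7 (8.54%) against 7.84% of rows. What sets the runs apart was not tested, and signal over background is unknown here.

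**Figure D1:**
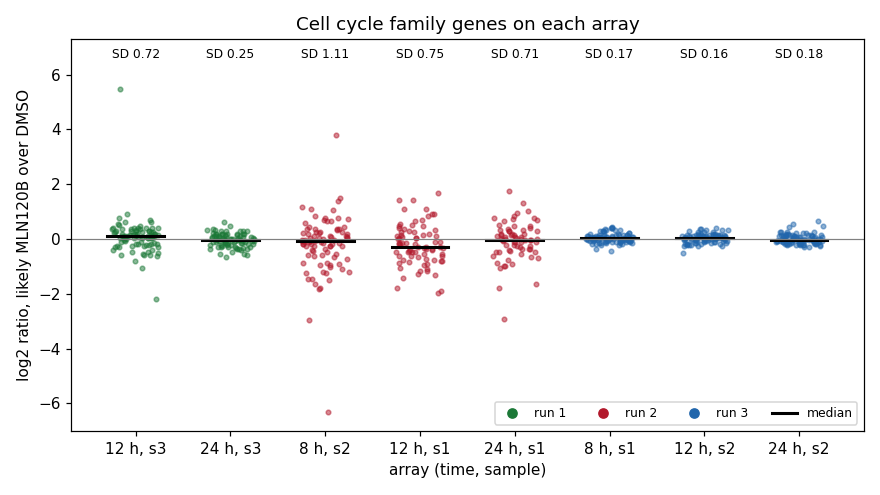
Log2 ratio of each cell cycle family gene (points) on each of the 8 arrays (x axis: time and sample, ordered by database run; y axis: log2 ratio, likely MLN120B over DMSO), with the median as a bar and the SD printed above. The arrays of run 3 keep every gene within 1 of 0, whereas those of run 2 spread 42 of 233 values beyond 1.

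**Figure D2:**
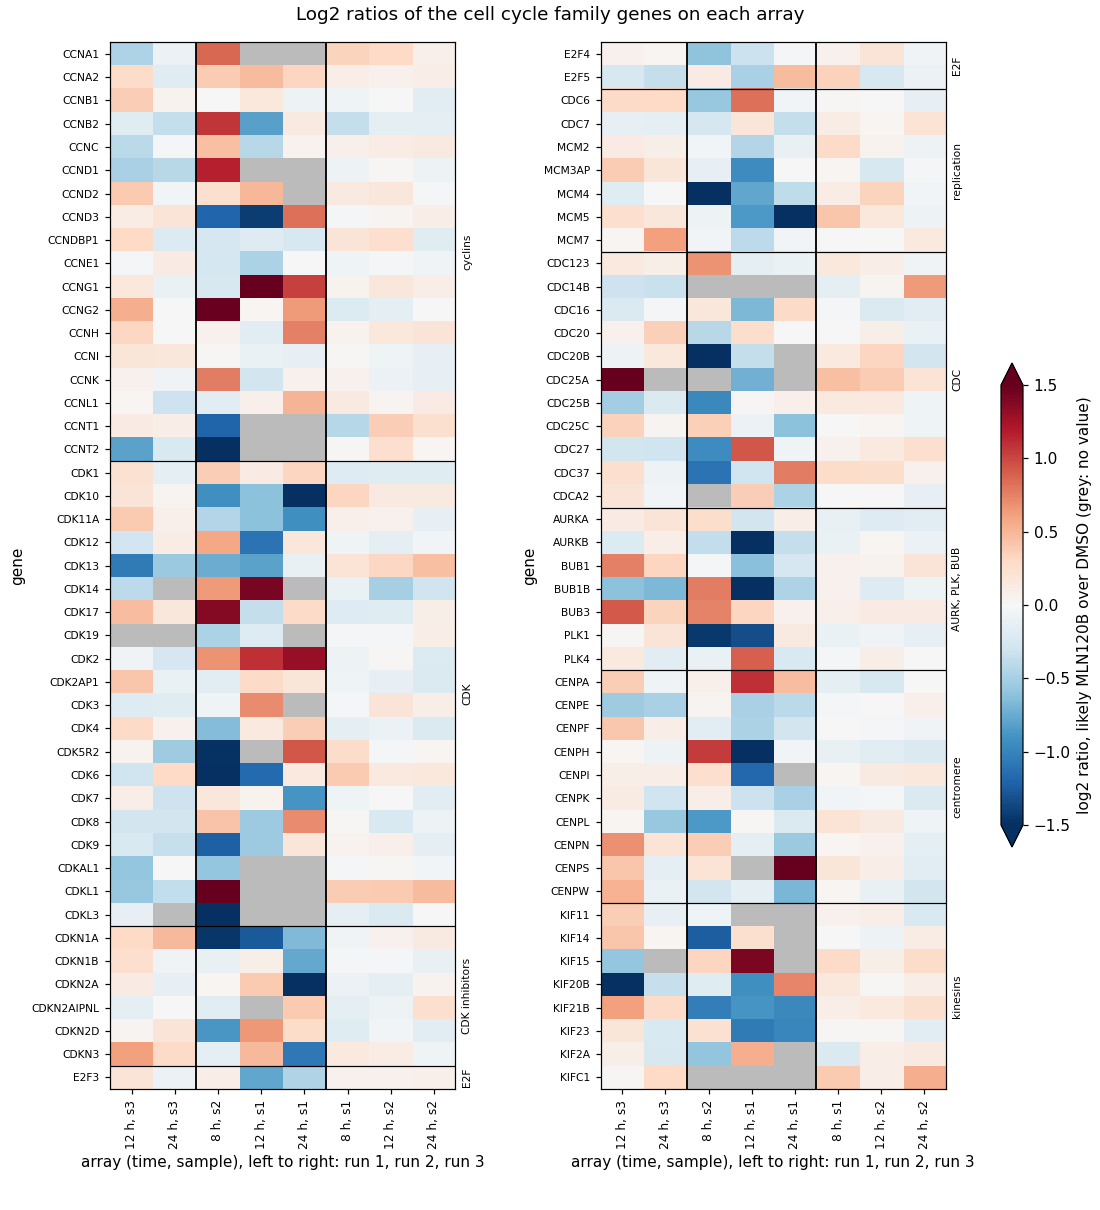
Heat map of the log2 ratio of the 90 genes (rows, grouped by role) on the 8 arrays (columns, grouped by database run), with the colour scale limited to 1.5 in size and missing values in grey. Deep colours sit mainly in the 3 middle columns of run 2, and BUB3 and KIFC1 are the only genes above 0 wherever they have a value on the centred scale (without centring BUB3 falls below 0 on 2 arrays and KIFC1 on 1).

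The promoters of the families were searched for known cell cycle sequence elements. Genes of late G2 and mitosis often carry a cell cycle homology region (CHR, searched as TTTGAA) near CCAAT boxes, and replication genes often carry E2F sites (searched as TTTCCCGC, TTTGGCGC, TTTCGCGC and TTTGCCGC). Each motif was searched on both strands in the 250 bases before every gene start in a RefSeq promoter table of GRCh38.p14, where 78 of the 90 members were found with 111 promoters. An E2F motif was present in 10.8% of member promoters and in 2.79% of all 35116 promoters. CHR was present in 15.3% against 13.3%, CCAAT in 44.1% against 32.0%, and both together in 11.7% against 4.69%. The κB consensus, the site of NF-κB, was present in 8.11% of member promoters and in 9.96% of all. Shown here, because their genes span the late cycle and hold both CHR and CCAAT, are the 250 bases before the start of CCNB2 (chr15:59104896-59105145), CDC20 (chr1:43358731-43358980), CENPA (chr2:26785806-26786055) and PLK1 (chr16:23678639-23678888), all on the plus strand and 5′ to 3′. Capitals mark CHR (TTTGAA, or TTCAAA on the other strand), CCAAT (or ATTGG), and in CENPA also an E2F motif and a κB match.
CCNB2: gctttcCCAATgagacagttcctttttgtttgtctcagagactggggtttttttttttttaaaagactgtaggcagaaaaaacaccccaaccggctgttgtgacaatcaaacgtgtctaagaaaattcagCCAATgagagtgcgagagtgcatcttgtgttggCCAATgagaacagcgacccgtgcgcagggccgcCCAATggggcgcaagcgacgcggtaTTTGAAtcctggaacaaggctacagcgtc
CDC20: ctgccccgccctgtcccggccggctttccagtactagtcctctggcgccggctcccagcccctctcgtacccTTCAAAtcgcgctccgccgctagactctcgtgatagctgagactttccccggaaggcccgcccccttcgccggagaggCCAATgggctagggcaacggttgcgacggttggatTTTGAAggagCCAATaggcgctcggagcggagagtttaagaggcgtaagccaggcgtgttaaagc
CENPA: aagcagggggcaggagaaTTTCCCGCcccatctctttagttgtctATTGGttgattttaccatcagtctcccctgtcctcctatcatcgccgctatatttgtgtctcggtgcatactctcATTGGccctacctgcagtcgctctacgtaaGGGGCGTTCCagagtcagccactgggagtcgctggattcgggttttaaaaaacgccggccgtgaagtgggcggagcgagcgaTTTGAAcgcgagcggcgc
PLK1: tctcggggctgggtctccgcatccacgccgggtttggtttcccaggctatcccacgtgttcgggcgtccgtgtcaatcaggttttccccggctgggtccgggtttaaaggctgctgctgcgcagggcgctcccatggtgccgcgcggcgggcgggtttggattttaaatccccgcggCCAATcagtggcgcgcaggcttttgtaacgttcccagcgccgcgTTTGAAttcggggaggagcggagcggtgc

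CHR lies nearest the start in all 4 promoters except CDC20, where a CCAAT box follows it. The κB match of CENPA is GGGGCGTTCC, 100 to 91 bases before the start.

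The cyclin group held 18 tested genes, with CCNDBP1 counted among them. Of these, 12 lay above 0 and 6 below in the mean over 3 times. Their median of 0.026 turned to -0.093 without centring, and none passed the unadjusted p in that mean. Among the D-type cyclins, which open the cycle by activating CDK4 and CDK6, CCND1 read -0.079 and 1.16 at 8 h, no value, 0.021 and -0.49 at 12 h, and no value, -0.075 and -0.41 at 24 h. Only the single high value, on the 8 h array of run 2, stood far above 0, and the other 5 lay between -0.49 and 0.021. Its 2 features disagreed. The 1.16 came from 1 feature alone, with a mean of 0.31 over its 5 arrays. The -0.49 came from the other alone, with a mean of -0.39 over its 5 arrays. The mean of CCND1, which averages both, was 0.021 ± 0.21 (SE), with a 95% half-width of 0.49. Without run 2 its plain mean was -0.21. CCND2 read 0.14 and 0.24 at 8 h, 0.50, 0.17 and 0.40 at 12 h, and no value, -0.034 and -0.045 at 24 h. All of its 8 h and 12 h values were above 0 and both 24 h values were just below, and the mean was 0.17 ± 0.13. CCND3 read -0.033 and -1.19 at 8 h, -1.42, 0.044 and 0.11 at 12 h, and 0.83, 0.094 and 0.19 at 24 h. The values of run 2 held both its lowest and its highest reading, and outside that run it stayed between -0.033 and 0.19.

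CCNE1, the partner of CDK2 at the start of replication, read -0.063 and -0.27 at 8 h, -0.48, -0.021 and -0.013 at 12 h, and -0.0020, -0.055 and 0.13 at 24 h, and its mean was -0.10 ± 0.12. CCNA2, which serves both replication and entry into mitosis, was above 0 on 7 of 8 arrays, with 0.10 and 0.38 at 8 h, 0.48, 0.064 and 0.27 at 12 h, and 0.32, 0.10 and -0.19 at 24 h. The mean of CCNA2 was 0.20 ± 0.12 (limma, adjusted p = 0.87). CCNB1, the mitotic partner of CDK1, gave the narrowest interval of all members, at 0.025 ± 0.12 with a 95% half-width of 0.26. Its paralogue CCNB2 read -0.36 and 1.08 at 8 h, -0.82, -0.15 and -0.19 at 12 h, and 0.14, -0.14 and -0.36 at 24 h, so that 2 arrays of run 2 held its extremes. CCNA1, the germline form of cyclin A, had a mean of 0.17 ± 0.17 over 6 arrays.

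The highest cyclin means belonged to CCNG2 and CCNG1, atypical cyclins linked to growth arrest and to the p53 response. CCNG2 read -0.21 and 1.48 at 8 h, 0.028, -0.14 and 0.54 at 12 h, and 0.64, -0.0060 and -0.011 at 24 h, and CCNG1 read 0.058 and -0.24 at 8 h, 1.69, 0.17 and 0.16 at 12 h, and 1.02, 0.10 and -0.10 at 24 h. The highest values of both came from run 2. The means of runs 1, 2 and 3 were 0.27, 0.72 and -0.12 for CCNG2 and 0.028, 0.82 and 0.11 for CCNG1. Their means over 3 times were 0.33 ± 0.20 and 0.31 ± 0.21. The lowest mean was that of CCNT2, which like CCNT1 activates CDK9 for transcript elongation. CCNT2 read 0.023 and -1.83 at 8 h, no value, 0.25 and -0.80 at 12 h, and no value, 0.027 and -0.23 at 24 h, and CCNT1 read -0.43 and -1.20 at 8 h, no value, 0.37 and 0.12 at 12 h, and no value, 0.24 and 0.10 at 24 h. At 8 h CCNT1 had an unadjusted limma p of 0.025 at -0.82 ± 0.29 and an adjusted p of 0.999, while 2.4% of all rows passed that unadjusted threshold at 8 h. The other transcription cyclins CCNC, CCNH, CCNK and CCNL1 had means between 0.026 and 0.16.

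Of the 17 tested genes of the CDK family, 6 lay above 0 and 11 below, with a median of -0.070. This median stayed below 0 after quantile or scale normalization. Leaving out the centring lowers the means, so it could not turn a median already below 0. CDK1, the kinase of mitosis, read -0.19 and 0.37 at 8 h, 0.12, -0.18 and 0.23 at 12 h, and 0.32, -0.18 and -0.15 at 24 h. The 3 arrays of run 3 and the 24 h array of run 1 were below 0 and the other 4 above, so that the mean was 0.048 ± 0.13 and the plain mean without run 2 was -0.10. In run 3 its 4 features gave 11 values, all below 0, although features on 1 array share their RNA and are not replicates. CDK2, the kinase of replication, read -0.076 and 0.67 at 8 h, 1.09, 0.018 and -0.049 at 12 h, and 1.31, -0.20 and -0.25 at 24 h. Run 2 gave 0.67 to 1.31 and the other arrays -0.25 to 0.018. Its mean was 0.31 ± 0.23 with run 2 and its plain mean -0.11 without it. CDK4 read -0.15 and -0.65 at 8 h, 0.15, -0.092 and 0.29 at 12 h, and 0.37, -0.22 and 0.067 at 24 h, for a mean of -0.070 ± 0.13.

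CDK6, which pairs with the D-type cyclins as CDK4 does, had the lowest mean of the CDK family, -0.50 ± 0.32. Its values were 0.39 and -2.94 at 8 h, -1.17, 0.15 and -0.30 at 12 h, and 0.15, 0.16 and 0.29 at 24 h. Of the 6 features that make up this gene value, 1 read -10.66 on the 8 h array of run 2 and -3.54 on its 12 h array. The others with a value there read -0.26, -0.80 and -0.026 at 8 h and -0.72, -0.44 and 0.027 at 12 h. All 3 arrays of run 3 and the 24 h array of run 1 put CDK6 above 0, and without run 2 the plain mean was 0.14. The lowest gene values of CDK6 thus held 1 feature far below the others. CDKL1, a CDK-like kinase, was the opposite case, with the highest mean, 0.68 ± 0.42. It read 0.38 and 3.79 at 8 h, no value, 0.39 and -0.57 at 12 h, and no value, 0.47 and -0.37 at 24 h, from a single feature, and its 3 values in run 3 were even, with a mean of 0.41, while run 1 gave -0.47. At 8 h CDKL1 had an unadjusted limma p of 0.025 and an adjusted p of 0.999.

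All 6 tested kinases that act on transcription (CDK7, CDK8, CDK9, CDK11A, CDK12 and CDK13) lay below 0 in the mean over 3 times, with a median of -0.15. All 6 stayed below 0 after quantile (median -0.082) or scale (median -0.077) normalization. Without centring, which lowers the means, the median was -0.28. Of all rows, 51.6% lay below 0 in that mean. By time, 3 of the 6 kinases lay below 0 at 8 h, 5 at 12 h and 4 at 24 h. None of the 6 passed the unadjusted p in the mean, and the median was -0.082 without run 2, where 1 of the 6 lay above 0. CDK8 was close to 0, with a mean of -0.0045 ± 0.15. CDK9, which drives elongation with the T-type cyclins, read 0.052 and -1.22 at 8 h, -0.54, 0.076 and -0.23 at 12 h, and 0.18, -0.14 and -0.35 at 24 h, for a mean of -0.31 ± 0.17 (limma, adjusted p = 0.87). CDK7, the kinase that activates the other CDKs and opens transcription with CCNH, read -0.065 and 0.17 at 8 h, 0.050, -0.011 and 0.10 at 12 h, and -0.89, -0.17 and -0.31 at 24 h, for a mean of -0.12 ± 0.13. CDK12 was below 0 in all 3 runs but close to it, with run means of -0.084, -0.12 and -0.079. CDK13 split by run, with a mean of 0.32 in run 3 against -0.81 in run 1 and -0.55 in run 2. Signal named CDK11A may include that of its near-identical copy CDK11B. Of the remaining kinases, CDK10 read 0.33 and -0.92 at 8 h, -0.62, 0.13 and 0.19 at 12 h, and -1.80, 0.13 and 0.046 at 24 h, and CDK17 had a mean of 0.25 ± 0.19.

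All 4 tested CDK inhibitors proper had means below 0, with a median of -0.13 that stayed below 0 after quantile or scale normalization. Without run 2 their median was -0.023, with 2 above 0 and 2 below, and at 12 h 3 of the 4 were above 0, with a median of 0.11. CDKN1A, which encodes p21, read -0.051 and -1.46 at 8 h, -1.26, 0.068 and 0.30 at 12 h, and -0.66, 0.13 and 0.48 at 24 h. Its 3 arrays of run 2 lay between -1.46 and -0.66, the other 5 lay between -0.051 and 0.48, and the mean of -0.36 ± 0.24 became a plain mean of 0.19 without run 2. CDKN1B, which encodes p27, read -0.023 and -0.11 at 8 h, 0.094, -0.027 and 0.25 at 12 h, and -0.77, -0.12 and -0.048 at 24 h, for a mean of -0.090 ± 0.13. CDKN2A, the locus of p16 and p14ARF, read -0.092 and 0.027 at 8 h, 0.39, -0.15 and 0.12 at 12 h, and -1.66, 0.048 and -0.12 at 24 h, and its mean of -0.16 ± 0.20 held its lowest value on the 24 h array of run 2, without which run the plain mean was -0.039. CDKN2D had a mean of -0.072 ± 0.15, and CDKN3, a phosphatase that removes an activating mark from CDK2, a mean of 0.041 ± 0.17.

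E2F3, which activates replication genes, had a mean of -0.083 ± 0.15, and the repressors E2F4 and E2F5 had means of -0.10 ± 0.13 and -0.027 ± 0.13. The median of these 3 was -0.083 and moved to 0.0069 after quantile normalization and 0.0040 after scale normalization. In run 3 E2F3, with 4 features, read 0.064, 0.064 and 0.081, and E2F4, with 6, read 0.060, 0.19 and -0.048. E2F5 read 0.34 and 0.12 at 8 h, -0.48, -0.24 and -0.25 at 12 h, and 0.47, -0.085 and -0.35 at 24 h.

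In the replication set, 2 genes lay above 0 and 5 below, with a median of -0.046 that turned to 0.020 after quantile and 0.032 after scale normalization, and without run 2 all 7 were above 0. Among the subunits of the MCM helicase, which unwinds DNA at the fork, MCM4 read 0.11 and -1.80 at 8 h, -0.78, 0.34 and -0.19 at 12 h, and -0.38, -0.047 and 0.00050 at 24 h. Its mean was -0.40 ± 0.22 (limma, adjusted p = 0.87). The lowest value was again on the 8 h array of run 2, where its 2 features with a value read -1.52 and -2.08. MCM5, read by 1 feature, gave 0.42 and -0.079 at 8 h, -0.86, 0.16 and 0.25 at 12 h, and -2.90, -0.078 and 0.17 at 24 h, for a mean of -0.31 ± 0.33 and a plain mean without run 2 of 0.18. The means of MCM2 and MCM7 were near 0, at -0.00072 ± 0.12 and 0.033 ± 0.13, with 95% half-widths of 0.28 and 0.29. MCM7, read by 1 feature, ran from -0.40 on the 12 h array of run 2 to 0.62 on the 24 h array of run 1. The features of MCM2 ranged over 1.34 on the 8 h array of run 3. CDC6, which loads the helicase onto origins, read 0.015 and -0.56 at 8 h, 0.83, -0.012 and 0.29 at 12 h, and -0.041, -0.13 and 0.30 at 24 h, for a mean of 0.047 ± 0.15. CDC7, the kinase that fires the loaded helicase, had a mean of -0.046 ± 0.13 over 5 features. MCM3AP, an mRNA export factor despite its symbol, had a mean of -0.088 ± 0.16.

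Of the 8 tested CDC genes, 3 lay above 0 and 5 below, with a median of -0.050 that turned to 0.0058 and 0.0039 after quantile and scale normalization. The CDC25 phosphatases remove the inhibitory phosphates from CDKs. CDC25B read 0.14 and -0.96 at 8 h, 0.017, 0.15 and -0.52 at 12 h, and 0.071, -0.064 and -0.21 at 24 h, for a mean of -0.20 ± 0.16. Its 0.017 at 12 h averaged features of 2.55 and -2.52. CDC25C had a mean of 0.021 ± 0.13. CDC25A was not tested, since 8 h and 24 h held 1 value each, and its single feature read 0.45 and no value at 8 h, -0.72, 0.38 and 5.48 at 12 h, and no value, 0.21 and no value at 24 h. The value of 5.48 is the highest of any member and had no second feature or array beside it. CDC20, CDC16 and CDC27 belong to the anaphase-promoting complex, the ubiquitin ligase that ends mitosis. CDC20 read 0.011 and -0.42 at 8 h, 0.26, 0.087 and 0.064 at 12 h, and 0.0075, -0.10 and 0.36 at 24 h, with a mean of 0.0071 ± 0.12. CDC27 read 0.062 and -0.94 at 8 h, 0.93, 0.15 and -0.27 at 12 h, and -0.053, 0.25 and -0.30 at 24 h, for a mean of -0.069 ± 0.18. CDC20B had the lowest mean of all members, -1.06 ± 0.64, and read 0.14 and -6.32 at 8 h, -0.36, 0.32 and -0.073 at 12 h, and no value, -0.27 and 0.16 at 24 h. The 8 h value of run 2 lay far below the others, and the plain mean of the arrays outside run 2 was 0.056. CDC123 had the highest mean of the tested CDC genes, 0.14 ± 0.12, and CDC16, below 0 in all 3 runs, had -0.088 ± 0.13.

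BUB3, a spindle checkpoint protein that docks at unattached centromeres, was the single member past the unadjusted p in the mean over 3 times. It read 0.077 and 0.75 at 8 h, 0.33, 0.12 and 0.92 at 12 h, and 0.064, 0.13 and 0.33 at 24 h. All 8 values were above 0 on the centred scale, the largest came from run 1 and run 2, and the 3 values of run 3 lay between 0.077 and 0.13. Without centring, the 12 h and 24 h arrays of run 2 read -0.055 and -0.41. The mean was 0.35 ± 0.14 with a 95% half-width of 0.33, an unadjusted limma p of 0.039 and an adjusted p of 0.87. With any 1 array left out the mean stayed between 0.24 and 0.46, but the unadjusted limma p missed 0.05 in 4 of these 8 fits, at 0.18 without sample 2 at 8 h, 0.10 without sample 3 at 12 h, and 0.075 and 0.098 without samples 2 and 3 at 24 h. It also missed without centring (0.21), with run as a random block (0.056) and without run 1, 2 or 3 (0.23, 0.095 and 0.10). It passed with run as a fixed block (0.013), where 11.8% of all rows passed, and with sample number as a block (0.022). It passed as well with quantile (0.039) or scale (0.023) normalization and with array weights (0.035). The means of the 3 features of BUB3 were 0.37, 0.37 and 0.35, although feature values on the 24 h array of run 2 ranged from -1.44 to 1.12. Of all 5411 rows, 1.42% were above 0 wherever they had a value and 1.2% were below, and among the tested members BUB3 alone was above and none below. KIFC1, which was not tested, was above 0 on all of its 5 arrays, and on 1 of them below 0 without centring, at -0.13.

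BUB1B, which encodes the checkpoint kinase BUBR1, was below 0 on 6 of 8 arrays. It read 0.069 and 0.77 at 8 h, -1.78, -0.19 and -0.61 at 12 h, and -0.46, -0.075 and -0.67 at 24 h. Both 8 h gene values were above 0 and all 6 later ones below, but the 2 features did not both follow this. They read 0.26 and -0.13 for sample 1 at 8 h. For sample 2 they read 0.022 and -0.41 at 12 h, and 0.42 and -0.56 at 24 h. For sample 3 at 12 h they read -0.59 and -0.64. The values of run 2 came from 1 feature. The limma estimate of BUB1B was 0.42 ± 0.38 at 8 h, -0.86 ± 0.31 at 12 h and -0.40 ± 0.31 at 24 h. At 12 h the unadjusted limma p was 0.022 and the adjusted p 0.93, and 3.07% of all rows passed the unadjusted threshold. BUB1, its partner kinase at the centromere, read 0.059 and -0.026 at 8 h, -0.63, 0.054 and 0.75 at 12 h, and -0.25, 0.19 and 0.33 at 24 h, for a mean of 0.055 ± 0.17.

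The mitotic kinase and BUB group as a whole had 4 means above 0 and 3 below, with a median of 0.00037 that became -0.13 without centring. PLK1, which drives mitotic entry and spindle assembly, read -0.10 and -1.45 at 8 h, -1.33, -0.057 and 0.023 at 12 h, and 0.13, -0.13 and 0.19 at 24 h. The 2 low values belong to run 2, where the 4 features of PLK1 read -2.84, -1.03, -0.63 and -1.31 at 8 h, all below 0. At 12 h in that run they were less even, at -3.67, 0.085, -1.44 and -0.29. The other 6 gene values of PLK1 lay between -0.13 and 0.19, and the mean was -0.39 ± 0.21 (limma, adjusted p = 0.87). AURKB, the kinase that corrects faulty attachments, read -0.10 and -0.37 at 8 h, -1.96, 0.031 and -0.20 at 12 h, and -0.36, -0.093 and 0.10 at 24 h. The value of -1.96 came from 3 features, at 0.033, -0.50 and -5.41 on the 12 h array of run 2, 1 of them far below the others. AURKA, which matures spindle poles, averaged 0.00037 ± 0.12 over values from -0.28 to 0.27. PLK4, the kinase of centriole duplication, had a mean of 0.064 ± 0.14.

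**Figure D3:**
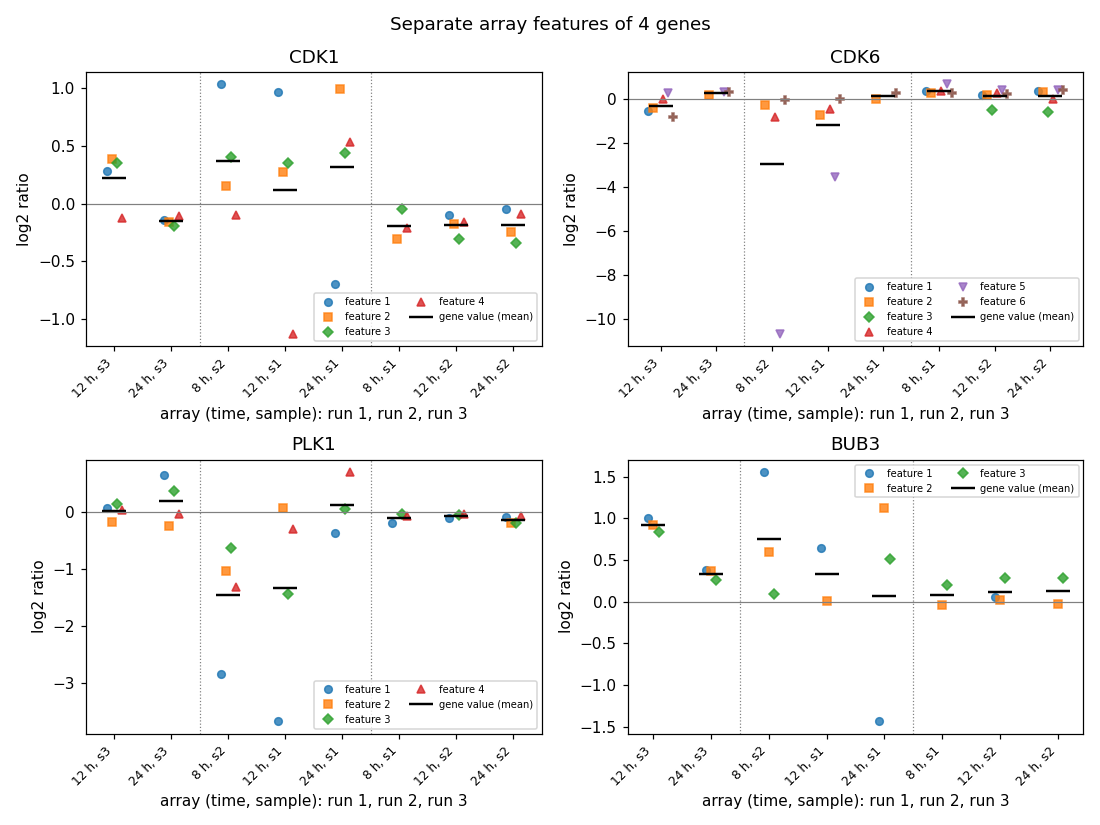
Log2 ratio (y axis) of each separate array feature of CDK1, CDK6, PLK1 and BUB3 on the 8 arrays (x axis, ordered by run), with the gene value, the mean of its features, as a bar. Features lie closer together in run 3 than in run 2, where 1 feature of CDK6 reaches -10.66. Those of CDK6 still range over 0.905 and 1.026 on the 12 h and 24 h arrays of run 3.

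Of the 10 centromere proteins, 3 lay above 0 and 7 below, with a median of -0.083. It stayed below 0 after quantile or scale normalization and was 0.0014 without run 2. CENPA, the histone H3 variant that marks centromeres, read -0.14 and 0.080 at 8 h, 1.10, -0.24 and 0.37 at 12 h, and 0.46, -0.0010 and -0.068 at 24 h, for a mean of 0.17 ± 0.17. CENPE, a kinesin motor that aligns chromosomes, read -0.019 and 0.039 at 8 h, -0.49, 0.0038 and -0.53 at 12 h, and -0.41, 0.075 and -0.48 at 24 h. It had 6 features and a mean of -0.20 ± 0.13, near 0 in run 3 (0.020) and lower in run 1 (-0.51) and run 2 (-0.29). CENPF, a large kinetochore protein of dividing cells, had 7 features and a mean of -0.062 ± 0.14. CENPS had the highest mean of the group, 0.31 ± 0.25, which came from 1.77 on the 24 h array of run 2, and its signal may include a readthrough transcript with a neighbouring gene. CENPL, at -0.18 ± 0.15, was the lowest after CENPE. CENPH and CENPK were below 0 in all 3 runs, with run 3 means of -0.17 and -0.093.

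Of the 6 tested kinesins, 1 lay above 0 and 5 below, with a median of -0.16. It stayed below 0 after quantile or scale normalization and became 0.0079 without run 2. KIF11, the motor that pushes spindle poles apart, read 0.069 and -0.063 at 8 h, no value, 0.10 and 0.37 at 12 h, and no value, -0.22 and -0.13 at 24 h, for a mean of 0.022 ± 0.14. KIF23, which organises the midzone for cytokinesis, read 0.020 and 0.23 at 8 h, -1.06, 0.019 and 0.18 at 12 h, and -0.98, -0.17 and -0.23 at 24 h, with its 2 lowest values in run 2 and a mean of -0.21 ± 0.18. KIF20B had the lowest kinesin mean, -0.29 ± 0.24, and read 0.16 and -0.19 at 8 h, -0.92, 0.016 and -2.20 at 12 h, and 0.73, 0.10 and -0.34 at 24 h. On sample 3 at 12 h its features disagreed, at 0.23 and -4.62. The 12 h estimate of KIF20B was -1.03 ± 0.38 with an unadjusted limma p of 0.025 and an adjusted p of 0.93. KIF21B, a transport kinesin, lay between -1.03 and -0.88 on the 3 arrays of run 2 and above 0 on all 5 others, for a mean of -0.22 ± 0.23. KIF2A, which dismantles microtubules, had a mean of -0.069 ± 0.14. KIFC1, which clusters spindle poles, read 0.39 and no value at 8 h, no value, 0.10 and 0.018 at 12 h, and no value, 0.55 and 0.30 at 24 h.

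**Figure D4:**
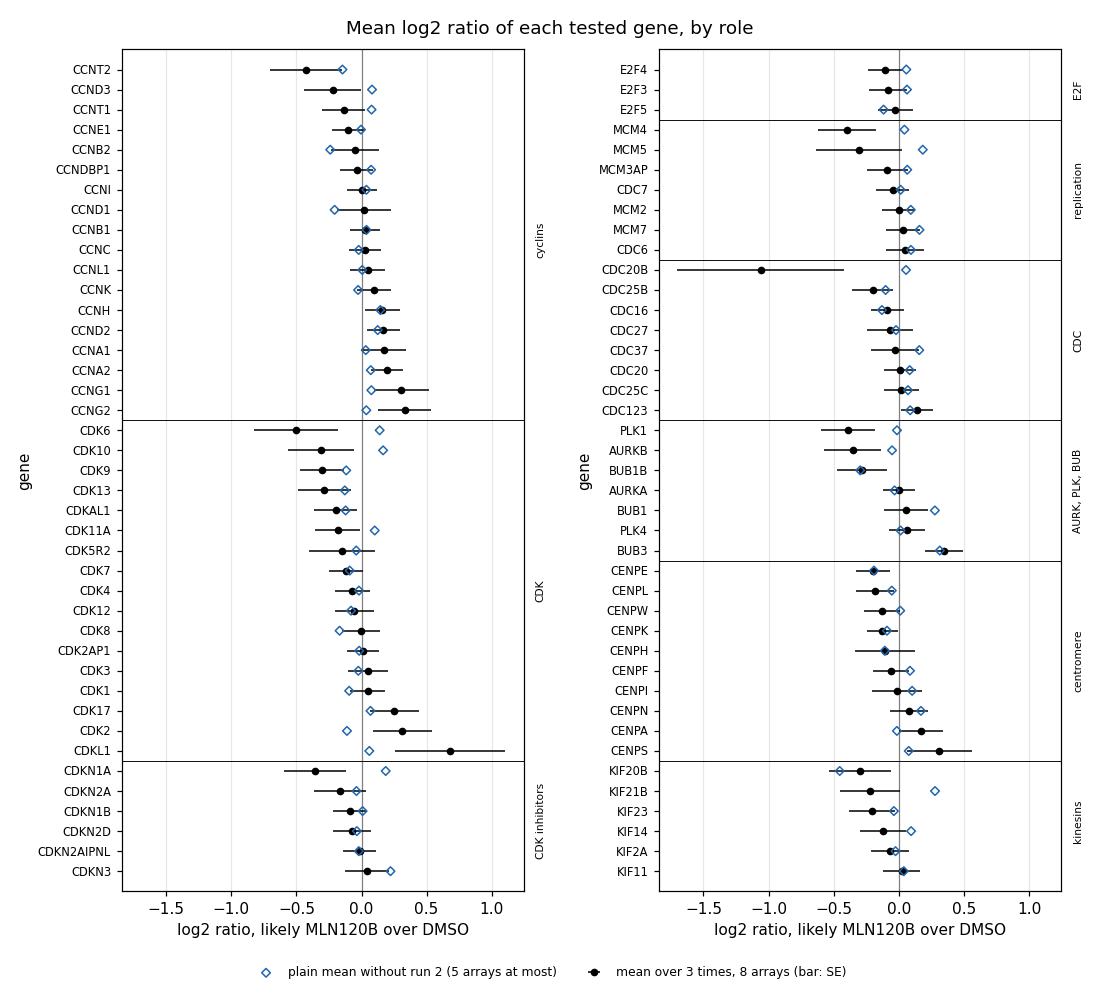
Mean log2 ratio over the 3 times (x axis, filled points, with SE bars) of each tested gene (y axis), grouped by role, and the plain mean without run 2 (open diamonds). Most filled points lie within 0.5 of 0, and for CDC20B, CDK6, CDKL1 and CDKN1A the diamond stands apart from the point.

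The 3 arrays of run 3, the most even ones, covered all 90 genes. Their run mean ran from -0.30 for CDK14 to 0.41 for CDKL1. On all 3 arrays 23 genes were above 0 and 19 below, where 25.4% and 25.1% of all rows were. Among those above were BUB1, BUB3, CCNA2, CCNH, CDK6 and E2F3, and among those below were AURKA, CCNB1, CCNB2, CDK1, CDK4, CDK7, CENPA and PLK1, in each case named after the values were seen. Among the members with several features, all 12 feature values of E2F3 and all 8 of CCNH in run 3 were above 0, and all 11 of CDK1, 10 of PLK1, 9 of CDC16 and 6 of AURKA were below. The run means behind them were small, at 0.069 for E2F3, 0.14 for CCNH, -0.18 for CDK1, -0.094 for PLK1, -0.14 for CDC16 and -0.16 for AURKA, and in run 2 CDK1 read 0.27 and E2F3 -0.38, on the other side of 0. Over the means of the 3 runs, 7 genes were above 0 in each run and 12 below, of 87 with a value in every run. That is 21.8%, against 20.4% of all rows. AURKB, BUB1B, CDK7, CDK9 and KIF23 were among the 12, and BUB3, CCNA2, CCND2, CCNG1 and CCNH among the 7.

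At 8 h 3 of 82 members passed the unadjusted p (3.66%, against 2.4% of all rows), at 12 h 2 (2.44% against 3.07%) and at 24 h 0 (against 2.01%), and limma's adjusted p passed for 0 of 82 members and 0% of all rows at each time and between times. The members at 8 h were CCNT1, CDKL1 and CDC20B, whose 8 h estimate was -3.09 ± 1.18, and those at 12 h were BUB1B and KIF20B. Medians over the members were -0.027 at 8 h, -0.029 at 12 h and -0.022 at 24 h. For 12 h against 8 h, BUB1B differed by -1.28 ± 0.49 and CCNT1 by 1.06 ± 0.41, with unadjusted limma p of 0.029 and 0.036 and adjusted p of 0.99 and 0.99, where 1.18% of all rows passed the unadjusted threshold. For 24 h against 8 h, CCNT1 alone passed it, at 0.98 ± 0.41, where 0.813% of all rows did. No member passed it for 24 h against 12 h, where 0.684% of all rows did. In gene values averaged over features, BUB1B, CCND2 and KIF23 were above 0 on both 8 h arrays. They were below 0 on every 24 h array with a value, a pattern of 3.2% of all rows. CCND3, CCNT1 and KIF14 showed the reverse, as did 3.38% of all rows.

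Of the 22 alternatives, 2 gave calls of members. With sample 1 at 8 h left out, the 8 h estimate is the lone array of run 2, assumed to vary like the other arrays. Limma then called CDC20B at -6.32, CDK6 at -2.94 and CDKL1 at 3.79 for 8 h, CDC20B at -2.14 in the mean over 3 times, CDC20B for 12 h against 8 h, and CDC20B and CDK6 for 24 h against 8 h. Without run 3, which again leaves that array alone at 8 h, it called CDC20B and CDKL1 at 8 h and CDC20B in the mean and in both differences from 8 h. Leaving out 1 array moved the mean of 77 of the 82 genes by more than 1.5 times or across 0, most often sample 2 at 8 h (57 genes) and sample 1 at 8 h (52 genes). Feature agreement followed the runs as well. The median range between features of a gene was 0.19, 0.25 and 0.31 on the arrays of run 3, and 1.08, 1.46 and 0.79 on those of run 2. Of 52 members with at least 2 well-covered features, 23 had feature means of 1 sign and 29 of both.

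The 11 tested genes with both CHR and CCAAT in a promoter (CCNB2, CCNC, CDC20, CDC25C, CDK1, CDKN3, CENPA, E2F3, KIF11, KIF23 and PLK1) had 7 means above 0 and 4 below and a median of 0.021. The 60 without both had 20 above and 40 below and a median of -0.069. In runs 1, 2 and 3 the mean of the array medians was 0.065, -0.044 and -0.021 for the genes with both and 0.042, -0.16 and 0.015 for those without, so that the order was turned in run 3. Over the 7 tested members with a κB match (CDC123, CDC20B, CDC37, CDK12, CDK13, CENPA and MCM7), 3 lay above 0 and 4 below, with a median of -0.030 against -0.065 for the 64 without. The 9 with an E2F motif had a median of -0.046 and the 62 without one -0.059. A match is a run of letters and does not show that a factor binds there.

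Other cell cycle genes, outside the families, were read from 3 lists. The lists were chosen with earlier results of these data known, so genes named from them are no independent support. In the mean over 3 times, 0 of their tested genes passed the adjusted p. In the list of DNA replication and nucleotide supply, 6 of 26 tested genes lay above 0 and 20 below, with a median of -0.12, and none passed the unadjusted p. By run, the mean of its array medians was 0.051, -0.28 and -0.023 for runs 1, 2 and 3. PCNA, the sliding clamp of the replication fork, had a mean of -0.060 ± 0.11. In the mitosis list 14 of 27 lay above 0 and 13 below, with a median of 0.0064. There MIS12, a kinetochore subunit, read 0.16 and 0.49 at 8 h, 0.83, 0.11 and 0.51 at 12 h, and 1.06, 0.18 and 0.18 at 24 h, all above 0, for a mean of 0.43 ± 0.15, and was the single gene past the unadjusted p. MKI67, the proliferation marker Ki-67, had a mean of -0.21 ± 0.14, and TOP2A, the mitotic topoisomerase, 0.12 ± 0.15. In the checkpoint and cycle control list 8 of 24 lay above 0 and 16 below, with a median of -0.076, and 1 gene passed the unadjusted p above 0 and 3 below. MYC, a driver of proliferation, was at 0.34 ± 0.13, and TOPBP1 and PKMYT1 at -0.51 ± 0.21 and -0.49 ± 0.21. MYBL2, the MYB protein of the late cell cycle programme, read 0.025 and -0.43 at 8 h, -1.10, -0.15 and -0.27 at 12 h, and -0.48, -0.42 and -0.10 at 24 h, for a mean of -0.35 ± 0.15. In comparison, 1.68% of all rows passed the unadjusted p above 0 and 1.72% below. All 10 plasma cell markers looked for had values, but a ratio of treated to control gives no level, so the labelled cell type could not be checked against its markers.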

How the data were processed

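RNA of treated (Cy5) and solvent (Cy3) L363 cells was compared on 8 2-colour arrays. RNA was isolated with TRIzol, per the labels' protocols. The values are the authors' deposited log2 ratios, 1 column per array. The base is not stated and was taken as 2, with values reaching 12.4 in size. How background, weak spots and normalization were handled is not given in the sources used here. Deposited array medians ran from -0.48 to 0.001, and each array was centred on its median. No intensities were used, so the number of arrays limits the precision. Of 15246 features, 10169 were paired with 1 gene, 4 with several and 5073 with none by the platform annotation. Symbols were updated for 10128 features by Entrez identifier and 17 by accession, and 24 were kept. Features of a gene were averaged.

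Rows with at least 2 values at each time (5411) were fitted with a mean per time in limma 3.58.1 (lmFit, eBayes, R 4.3.3), against 0 or between times, 2-sided, with Benjamini-Hochberg adjustment over all rows and a threshold of 0.05. The code was tested on simulated data. Alternatives were other scalings, filters, blocks, weights, variance priors and arrays left out. Sample numbers were not used to pair the arrays. Deviations of same-numbered arrays correlated at 0.20 to 0.29 between 12 h and 24 h, where number and run coincide and cannot be told apart. Pairs with an 8 h array, from different runs, correlated at -0.32 to -0.15. With 2 arrays at 8 h the deviations mirror each other, so these pairs cannot be judged separately. Genes are named that are core members of a family, hold the 2 highest or 2 lowest means of their role, or passed the unadjusted p in the mean or at 24 h, and others are named with their counts. Families, roles and lists were chosen with earlier results of these data known. Promoters are RefSeq's of GRCh38.p14. Python 3.11.15 with pandas 2.3.3, numpy 2.4.6 and matplotlib 3.10.9 prepared tables and plots.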

Additional observations from a re-analysis of the deposited data

How the results depend on the processing

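Of the 22 alternatives, most left the count of called genes at 0. With database run as a fixed block, limma called 6 rows in the mean over 3 times. Quantile normalization gave 3 in the mean and 2 at 24 h. With rows on 5 or more arrays it was 3 in the mean, 6 at 8 h, 4 for 12 h against 8 h and 4 for 24 h against 8 h. Without run 1 it was 1 at 12 h. Without run 3 it was 38 in the mean, 64 at 8 h, 2 at 24 h, 46 for 12 h against 8 h, 40 for 24 h against 8 h and 1 for 24 h against 12 h, and members numbered 1, 2, 0, 1, 1 and 0 of these. With 1 array left out at a time, rows called ran from 0 to 50 in the mean, 0 to 125 at 8 h, 0 to 1 at 12 h, 0 to 2 at 24 h, 0 to 71 for 12 h against 8 h, 0 to 70 for 24 h against 8 h and 0 to 2 for 24 h against 12 h. Members ran from 0 to 1, 0 to 3, 0 to 0, 0 to 0, 0 to 1, 0 to 2 and 0 to 0 in the same order. Counts of 50 or more came without sample 1 at 8 h, which leaves 1 array at that time, the most at 12 h came without its sample 3, and the most at 24 h and for 24 h against 12 h without sample 2 at 24 h. The median over the members was -0.18 with the values as deposited and -0.071 to -0.0087 with 1 array left out.

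With sample number as a replicate block, 0 rows and 0 members were called in each contrast and the median over the members was -0.045, so no call changed. In at least 1 alternative, the mean of 36 of the 54 tested genes chosen for naming changed sign, 20 of them without run 2. The few arrays, the spread of run 2 and features that disagree limit the precision, and the cause of the spread was not tested.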
